A study of Mus musculus with 3 samples.

Results

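DEAD and DEAH box RNA helicases are enzymes that use ATP to unwind RNA or to strip proteins from it, and the mouse genes are named Ddx and Dhx after a conserved motif of the protein. Here they are the genes with such a symbol on at least 1 probe set assigned to a single gene, with Ddx3x, Ddx3y, Ddx60 and Dhx58 left out. This gave 48 genes on 105 probe sets, of 18193 genes named on the array. For each gene the probe set with the highest mean intensity over the 3 arrays was used. A total of 46 passed the filter on low values (mean intensity above 71.4) and were tested among 10341 genes. Ddx4 and Ddx25, known from germ cells, did not pass, with intensities of 0.729 to 2.25 and 7.83 to 18.7 over the 3 arrays.

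RNA came from sorted memory phenotype CD4 T cells of the spleens of BALB/c mice; such cells carry the surface marks of helper T cells that have met antigen. The animals had eaten either a normal diet (ND, 1 array) or a high fat diet with 60 kcal% fat (HFD, 2 arrays) for 10 weeks, with no transgene or other agent named. Whether a sample is 1 mouse or a pool is not stated in the labels. The p-values thus reflect how these samples scatter, and that scatter could be technical. The age of the mice is not given in the sources used here.

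Most steps in the life of an RNA use members of this family. Nucleolar helicases release small nucleolar RNAs and fold the precursors of the ribosome, spliceosomal DEAH helicases drive the rearrangements of splicing, and cytoplasmic members act in export, translation and decay of mRNA. In T cells, ribosome production is known to rise when a resting cell prepares to grow and divide.

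Values are linear probe set intensities. Differences are log2(HFD) minus log2(ND) after adding an offset of 17.65, and an HFD level is the mean ± SD of its 2 arrays. The test was limma's moderated test with Benjamini-Hochberg adjustment over all 10341 genes, and a gene is said to have risen or fallen at an adjusted p under 0.05. The spread comes from the HFD arrays alone, and the single ND array is assumed to vary like them. The median of all genes lay at -0.15, so a list median is also given relative to it. Intensities of different probe sets are not compared with each other, because probe sets bind their targets differently.

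The arrays were checked against their labels. The 7 measured CD4 T cell markers (of 8) had a summed intensity of 77712 on ND and of 65100 and 63378 on HFD 1 and HFD 2. Of them 5 fell and 0 rose. For this and the marker counts below, 29.2% of all genes tested fell and 20.5% rose. Cd4 itself read 911 on ND and 609 and 377 on HFD, and Cd44 read 9761 on ND and 5623 and 5700 on HFD. Both fell. Markers of other splenic cells moved too, in both directions. The 6 macrophage markers summed to 2198 on ND and to 817 and 962 on HFD (4 fell), and the 5 dendritic cell markers to 1568 and to 699 and 765 (3 fell). The 6 measured B cell markers (of 7) summed to 1288 on ND and to 2499 and 2610 on HFD, and 1 rose and 1 fell; the riser was Ms4a1 (56.8 on ND, 1612 and 1837 on HFD) and the other Cd22 (939 on ND, 605 and 504 on HFD). Without Ms4a1 the other 5 summed to 1231 on ND and to 887 and 772 on HFD. That sum is mostly Cd22, and its members differed in direction. Cd22, Cd79b and Pax5 read lower on both HFD arrays. Cd79a (5.74 on ND, 51.2 and 49.4 on HFD) and Ebf1 (1.73, then 14.3 and 43.5) read higher, both under the filter. The 3 neutrophil markers (of 4) summed to 59.7 on ND and to 442 and 496 on HFD (2 rose). The risers were S100a8 (40.9 on ND, 247 and 362 on HFD) and S100a9 (5.85, then 183 and 131). Both, like Ms4a1, read under the filter value on ND and passed it only through their HFD readings. Genes this dim on ND are tested only if HFD reads higher, so these calls could not have been lower. Elane (12.9 on ND, 11.3 and 2.36 on HFD) stayed under the filter and was not tested. The 2 CD8 genes summed to 449 on ND and to 581 and 715 on HFD (1 rose). Measured NK cell and erythroid markers (2 of 3 each) were under the filter on low values, and no marker read 0 on any array. The part of these cells in the results below was not tested, and in sorted bulk RNA a change in the share of a cell type and one in RNA per cell cannot be told apart.

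Genes of the major histocompatibility complex, chosen after their values were seen, separated ND from HFD. H2-Ea, which BALB/c mice express in their antigen-presenting cells and C57BL/6 mice do not, read 11.5 on ND and 536 and 602 on HFD. Of 9 probe sets for the class I gene H2-D1, 3 read 8.98 to 82.9 on ND and 5720 to 7700 on HFD, while the brightest read 28067 on ND and 26367 and 25218 on HFD. A difference in strain between the ND and HFD samples was not tested, and it, any batch and the diet cannot be told apart. With 1 ND array, no result can be given without it.

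In the comparison of the diets, 19 of the 46 helicase genes rose in HFD (41.3%, against 20.5% of all genes tested), 8 fell (17.4%, against 29.2%) and 19 did not pass the test. In either direction 27 were called, against 49.6% of all genes. The genes of ribosome assembly made up 12 of the 19 risers. Differences ran from -1.37 for Ddx43 to 1.43 for Ddx1, with a median of 0.28, which is 0.44 above that of all genes. When each array was centred on its median, 25 rose and 3 fell, against 26.7% and 20.3% of all genes. That fit also estimated an infinite prior degrees of freedom, which lowers p-values. Centred differences tested with the variance of the uncentred fit, an alternative chosen after seeing the data, gave 23 higher and 3 lower (26.2% and 18.9% of all genes). By size alone, 5 helicase genes were at least 2-fold higher in both HFD arrays (6% of all genes were) and 1 was at least 2-fold lower (2.6% of all genes). The ND value lay below both HFD values for 27 genes (35.8% of all genes), above both for 14 (54.7%) and between them for 5.

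**Figure D1:**
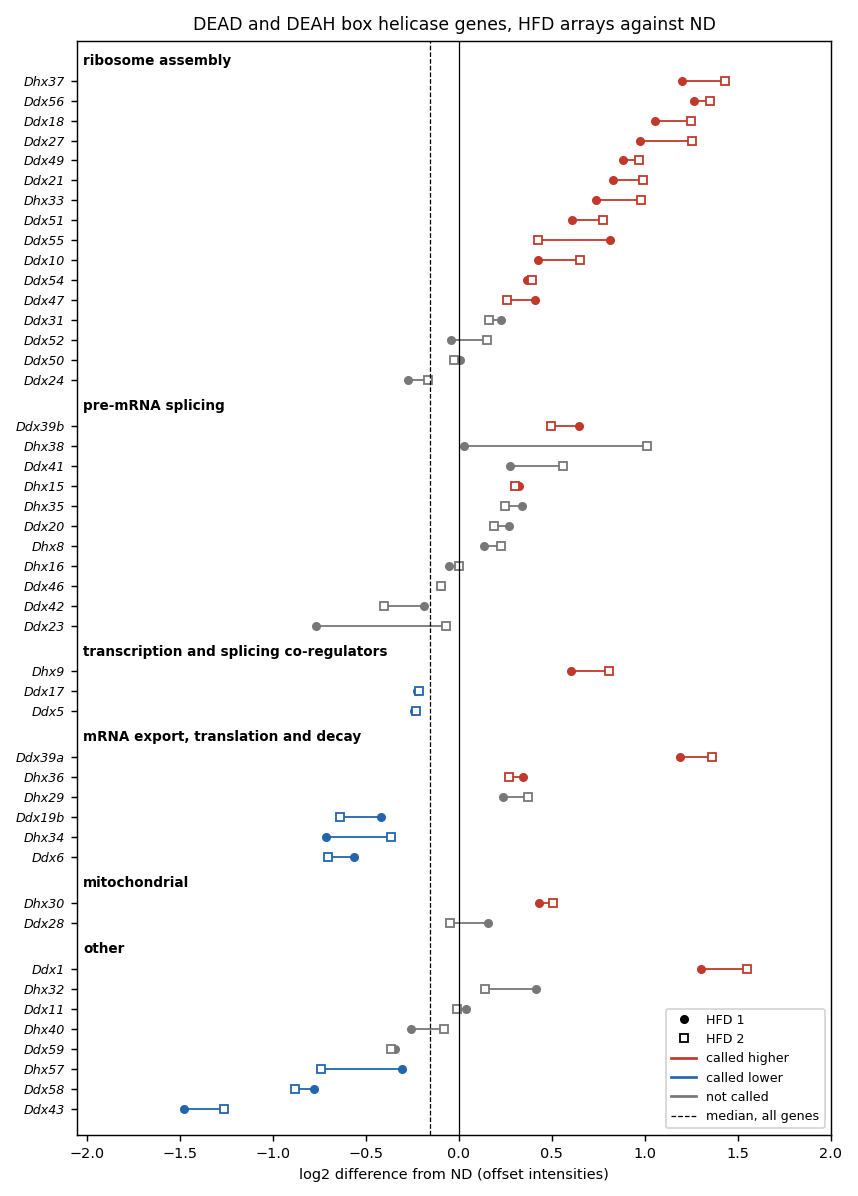
Log2 difference from ND on each HFD array (x axis; circles HFD 1, open squares HFD 2) for the 46 tested helicase genes, grouped by role and coloured by the limma call at an adjusted p under 0.05. The 12 risers of ribosome assembly fill the right side of the top group, and the 8 genes that fell lie in the 3 groups of co-regulators, mRNA export to decay, and other roles.

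Of the 16 ribosome assembly helicases, 12 rose in HFD (75%), 0 fell and 4 did not pass the limma test. Among the 30 other helicases 7 rose (23.3%) and 8 fell (26.7%). Of all genes 20.5% rose and 29.2% fell. At an unadjusted p under 0.05 the number of ribosome assembly genes that were lower was also 0, and with averaged probe sets, or with those whose identifier has no _s, _x or _a suffix, it was 1 after adjustment, Ddx24. The median of the 16 genes was 0.66, 0.81 above that of all genes, and that of the other 30 was 0.036, 0.19 above all genes. These are descriptions of chosen lists, and the difference between them was not tested. Growth genes were read beside them. Of 7 measured genes of proliferation (8 listed), 5 rose and 1 fell (71.4% and 14.3%, against 20.5% and 29.2% of all genes). Myc, the transcription factor that drives cell growth, read 777 on ND and 4629 and 5008 on HFD (log2 2.60 ± 0.12 SE). Mki67, a marker of cycling cells named here after its value was seen, read 2092 on ND and 1610 and 1440 on HFD, and fell (log2 -0.45). The part of cell growth in the helicase values was not tested.

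**Figure D2:**
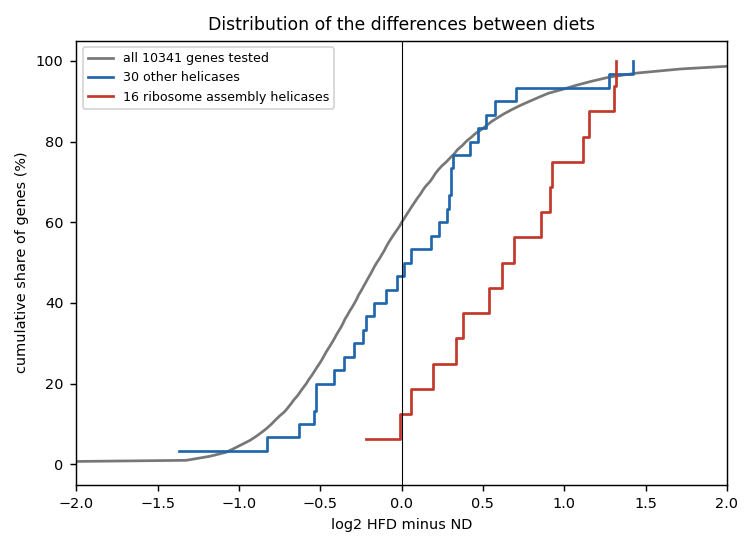
Cumulative share of genes (y axis, percent) by log2 difference between HFD and ND (x axis) for all 10341 genes tested, the 16 ribosome assembly helicases and the 30 other helicases. The ribosome assembly curve lies to the right of the other curves over most of its range, with a median of 0.66 against -0.15 for all genes.

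Among helicases of the large ribosomal subunit, Ddx56, which acts on its early precursors, read 439 on ND, 1078 on HFD 1 and 1147 on HFD 2. It rose 2.48-fold (log2 1.31 ± 0.14 SE, limma adjusted p = 1.24e-05), with both HFD arrays far above ND. Ddx18, the relative of the yeast factor Has1, read 2167 on ND and 4519 and 5167 on HFD, a 2.22-fold rise (log2 1.15 ± 0.11 SE, adjusted p = 5.50e-06). The gap between the HFD arrays was small beside their distance from ND. Ddx27 read 884 on ND and 1756 and 2134 on HFD and rose 2.17-fold (log2 1.11 ± 0.14 SE, adjusted p = 4.56e-05). Ddx27 works in processing of the large subunit RNA. Ddx51 read 594, then 915 and 1029 (log2 0.69 ± 0.15 SE, adjusted p = 0.00183). Ddx55 read 475, then 847 and 645, so its HFD arrays disagreed more (log2 0.62 ± 0.18 SE, adjusted p = 0.0108). Ddx54 rose 1.30-fold, from 4844 to 6312 ± 73.8 (log2 0.38).

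Further risers are known from the small subunit or from nucleolar transcription. Dhx37, which releases the U3 small nucleolar RNA from the small subunit precursor, read 78.3 on ND and 203 and 241 on HFD, a 2.49-fold rise (log2 1.32 ± 0.26 SE, adjusted p = 0.00111). Its ND value lay close to the filter, so its fold rests on a dim reading. Utp14a, the known activator of Dhx37, rose too, from 1128 to 2341 ± 36.0 (log2 1.04). Ddx49 read 782, then 1458 and 1550 (log2 0.93 ± 0.13 SE, adjusted p = 1.09e-04). Ddx10 read 1594, then 2146 and 2515 (log2 0.54), and Ddx47 read 1962, then 2615 and 2356 (log2 0.34). Dhx33, known in transcription of ribosomal DNA, read 721 on ND and 1215 and 1436 on HFD (log2 0.86 ± 0.15 SE, adjusted p = 3.93e-04). All HFD values of these 5 genes lay above ND, and the call of Dhx33 ended when its probe sets were averaged (log2 0.36, adjusted p = 0.164).

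Ddx21 and Ddx50 are paralogues that both localise to the nucleolus, and 1 of them passed the test. Ddx21, which couples transcription by RNA polymerase I to rRNA processing, read 2788 on ND and 4975 and 5566 on HFD (log2 0.91 ± 0.11 SE, adjusted p = 2.54e-05). Its other probe set read 1153 on ND and 4701 and 5214 on HFD, a log2 difference of 2.09. Ddx50 read 3867 on ND and 3885 and 3795 on HFD, with ND between the HFD values (log2 -0.0099, 95% interval -0.24 to 0.22, adjusted p = 0.947). The difference of Ddx21 exceeded that of Ddx50 by 0.82 on HFD 1 and by 1.02 on HFD 2, which was not tested. The other members that did not pass were Ddx31 (log2 0.19), Ddx52 (0.057) and Ddx24 (-0.22, from 1837 to 1578 ± 82.7). Ddx24 was called lower when its probe sets were averaged (log2 -0.40, adjusted p = 0.0366), and Ddx31 higher (log2 0.45, adjusted p = 0.0346).

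**Figure D3:**
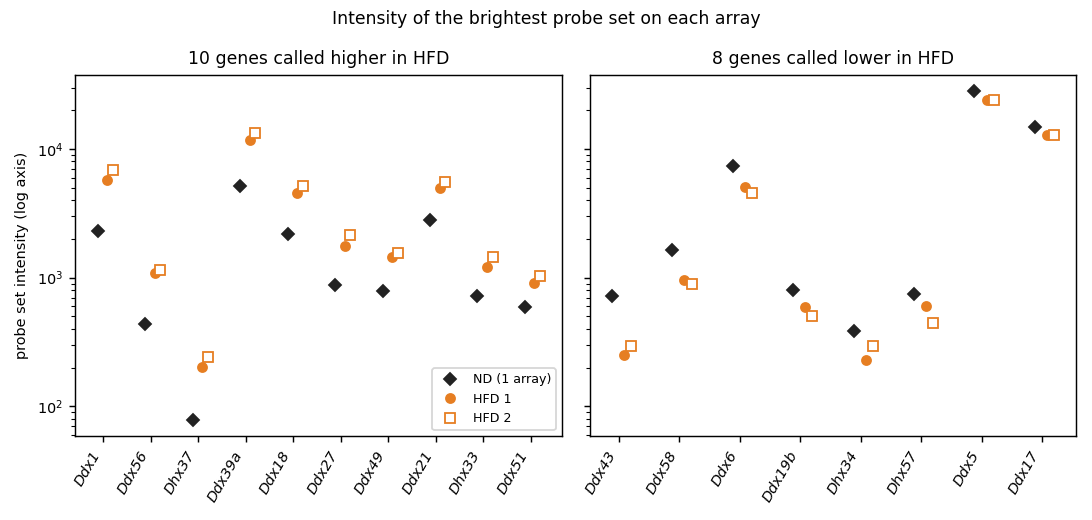
Intensity of the brightest probe set (y axis, log scale) on the ND array (diamonds) and on both HFD arrays (circle and open square) for the 10 helicase genes called higher with the largest smaller difference to ND and for the 8 called lower. In every gene shown both HFD points lie on 1 side of ND, which the choice of genes by call and by that difference favours. The differences run from 2.69-fold higher for Ddx1 to 2.58-fold lower for Ddx43.

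Of the 11 helicases of pre-mRNA splicing, 2 rose (18.2%, near the 20.5% of all genes), 0 fell (29.2% of all genes) and 9 did not pass the limma test. Their median was 0.23, 0.38 above all genes. At an unadjusted p under 0.05 the number lower was also 0, and with the filter at the 75th percentile Ddx42 was called lower. Ddx39b, which recruits the U2 particle to introns and also serves mRNA export, read 5896 on ND and 9242 and 8334 on HFD, a 1.49-fold rise (log2 0.57 ± 0.096 SE, adjusted p = 3.59e-04). Dhx15, which takes apart spent spliceosomes, read 14025 on ND and 17555 and 17326 on HFD (log2 0.31 ± 0.075 SE, adjusted p = 0.00381). The HFD arrays nearly coincided for Dhx15, but its call ended under 3 of 12 other settings, among them quantile normalization (log2 0.08, adjusted p = 0.334). Its nucleolar G-patch cofactors Nkrf and Pinx1 rose from 564 to 1270 ± 12.3 (log2 1.15) and from 279 to 557 ± 18.7 (log2 0.95). Among the other listed proteins with a G-patch, Rbm17 rose (log2 0.80), Cmtr1 and Rbm5 fell (log2 -0.41 and -0.47), and Gpatch2 (-0.63), Tfip11 (-0.39), Sugp1 (-0.26), Gpatch3 (0.13) and Gpkow (8.44e-05) did not pass.

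Other splicing members lay near ND or scattered. Ddx41 read 328 on ND and 401 and 492 on HFD (log2 0.42 ± 0.18 SE, adjusted p = 0.0752), and Dhx35 read 401, then 511 and 478 (log2 0.29 ± 0.16 SE, adjusted p = 0.159). Both were called higher under quantile normalization (adjusted p = 0.0268 and 0.0433) and with arrays centred, also when the variance of the uncentred fit was kept (adjusted p = 0.0222 and 0.0417). With arrays centred 6 of the 11 rose (26.7% of all genes did), and 5 with that variance kept (26.2% of all genes). The 1 lost was Dhx38 (adjusted p = 0.0127 and 0.106). Dhx38, needed for the second step of splicing, read 172 on ND and 176 and 366 on HFD, so HFD 1 sat at ND and HFD 2 did not. Ddx23, the helicase of the U5 particle, read 160 on ND and 86.8 and 152 on HFD, with HFD 2 near ND. Ddx20 of the SMN complex (log2 0.23), Dhx8 (0.18), Dhx16 (-0.025), Ddx46 (-0.095) and Ddx42 (-0.30) did not pass either. Ddx46 had 5 probe sets past the filter, and the brightest was the one below ND on both HFD arrays.

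Of the 3 co-regulators of transcription and splicing, 1 rose and 2 fell (of all genes 20.5% and 29.2%). Dhx9, RNA helicase A, which resolves structured RNA in the nucleus, read 5438 on ND and 8279 and 9528 on HFD, a 1.63-fold rise (log2 0.71 ± 0.10 SE, adjusted p = 1.16e-04). Its next probe set read 1303 on ND and 2783 and 2845 on HFD (log2 1.10). The paralogues Ddx5 and Ddx17, which act together as co-regulators, both fell. Ddx5 read 28236 on ND and 23927 and 24070 on HFD (log2 -0.23 ± 0.067 SE, adjusted p = 0.0110). Ddx17 read 14918, then 12766 and 12867 (log2 -0.22 ± 0.078 SE, adjusted p = 0.0331). Both differences are close to the median of all genes, and both calls ended with arrays centred (log2 -0.08 and -0.065, adjusted p = 0.596 and 0.684). Under quantile normalization both differences were larger instead (log2 -0.39 and -0.44, limma adjusted p = 1.06e-04 and 1.79e-04). In all, the call of Ddx5 ended under 6 of 11 other settings and that of Ddx17 under 5 of 11. For Ddx5, 1 dimmer probe set read higher in HFD (303 on ND, 479 and 489 on HFD).

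Of 6 helicases of mRNA export, translation and decay, 2 rose, 3 fell and 1 did not pass, where 20.5% of all genes rose and 29.2% fell. Their median was 0.04 above that of all genes. Ddx39a, the paralogue of Ddx39b in mRNA export, read 5161 on ND and 11802 and 13287 on HFD and rose 2.42-fold (log2 1.28 ± 0.095 SE, adjusted p = 3.96e-07). Its difference exceeded that of Ddx39b by 0.54 on HFD 1 and 0.86 on HFD 2, which was not tested, and the probe sets of such close paralogues can bind transcripts of both. Of the other probe sets of Ddx39a, 3 bright ones were higher on both HFD arrays and a dim one read 147 on ND and 33.1 and 121 on HFD. Dhx36, which unwinds G-quadruplexes, rose 1.24-fold (1973 to 2445 ± 92.2, adjusted p = 0.0453), just under the threshold. Dhx29, a translation initiation helicase, read 554 on ND and 656 and 721 on HFD (log2 0.30 ± 0.15 SE, adjusted p = 0.116).

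The decay factor Ddx6, a core protein of processing bodies that represses mRNA and promotes its decapping, read 7438 on ND and 5026 and 4571 on HFD. It fell 1.55-fold (log2 -0.63 ± 0.10 SE, adjusted p = 2.60e-04), and all 3 of its other probe sets were below ND on both HFD arrays. Ddx19b, the export helicase at the nuclear pore, read 800 on ND and 594 and 507 on HFD (log2 -0.53 ± 0.16 SE, adjusted p = 0.0149). A dim probe set went the other way (67.4 on ND, 143 and 128 on HFD), and the mean of its probe sets was 0.16 above ND (adjusted p = 0.470). The call of Ddx19b was kept under only 6 of 12 other settings. Dhx34, a factor of nonsense-mediated decay, read 383 on ND and 227 and 293 on HFD (log2 -0.54 ± 0.21 SE, adjusted p = 0.0469). Its call ended under 7 of 10 other settings.

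The mitochondrial helicase Dhx30, which serves assembly of the mitochondrial ribosome, read 2422 on ND and 3268 and 3453 on HFD (log2 0.47 ± 0.11 SE, adjusted p = 0.00378). The call ended under 3 of 12 other settings, among them averaged probe sets (adjusted p = 0.0873), and 1 of its probe sets had ND between its HFD values. Ddx28, also of the mitochondrial ribosome, read 587 on ND and 657 and 568 on HFD, with ND between them (log2 0.057, adjusted p = 0.790).

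The helicase gene with the largest difference in the main setting was Ddx1, a subunit of the complex that ligates tRNA exons. It read 2321 on ND and 5754 and 6819 on HFD, a 2.69-fold rise (log2 1.43 ± 0.12 SE, adjusted p = 9.58e-07), and its other probe set read 1822, then 3404 and 4517. Dhx37 and Ddx56 exceeded it under quantile normalization (log2 1.47 and 1.41 against 1.38), Dhx37 with an offset of 1, Ddx39a with probe sets lacking those suffixes and Ddx21 with averaged ones. Its partners in that complex, Rtcb, the ligase itself, and Fam98b, named here after their values were seen, rose by log2 0.52 and 0.53. The largest fall in the main setting was that of Ddx43, a helicase known from the germ line, which read 725 on ND and 249 and 292 on HFD (log2 -1.37 ± 0.18 SE, adjusted p = 5.98e-05). It was measured by a single probe set.

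Ddx58 encodes RIG-I, the cytosolic sensor of viral RNA and an interferon-induced gene. It read 1643 on ND and 953 and 886 on HFD (log2 -0.83 ± 0.14 SE, adjusted p = 3.03e-04), and both of its other probe sets were lower on both HFD arrays. Dhx57 read 749 on ND and 603 and 441 on HFD, with a wide gap between the HFD arrays (log2 -0.52 ± 0.19 SE, adjusted p = 0.0331). Its call ended under 7 of 11 other settings, among them arrays centred (adjusted p = 0.0596). Ddx59 (log2 -0.35), Dhx40 (-0.17), Ddx11, a DNA helicase of sister chromatid cohesion (0.016), and Dhx32 (0.28) did not pass the test. ND lay between the HFD values for Ddx11.

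Across the 27 called genes, 20 had another probe set past the filter, 34 in all. Ddx43, Ddx51, Ddx56, Dhx34, Dhx37 and Dhx57 were each measured by a single probe set, and the other probe sets of Ddx47 did not pass. Of these 34, 28 differed in the same direction as the brightest and 6 in the opposite one, 1 each for Ddx5, Ddx18, Ddx19b, Ddx39a, Dhx30 and Dhx33. That of Ddx18 read 278 on ND and 202 and 212 on HFD, and that of Dhx30 read 1973 on ND and 1603 and 2418 on HFD. A call was kept under every alternative setting that measured the gene for 11 of the 19 risers (Ddx1, Ddx18, Ddx21, Ddx27, Ddx39a, Ddx39b, Ddx49, Ddx51, Ddx56, Dhx9 and Dhx37) and for 3 of the 8 that fell (Ddx6, Ddx43 and Ddx58). The other 13 calls ended under at least 1 setting. Among the risers, calls ended under 4 of 12 settings for Ddx55 and Dhx36, and under 3 for Dhx15, Dhx30 and Ddx47. For Ddx54 it was 2, and for Ddx10 and Dhx33 1 each.

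**Figure D4:**
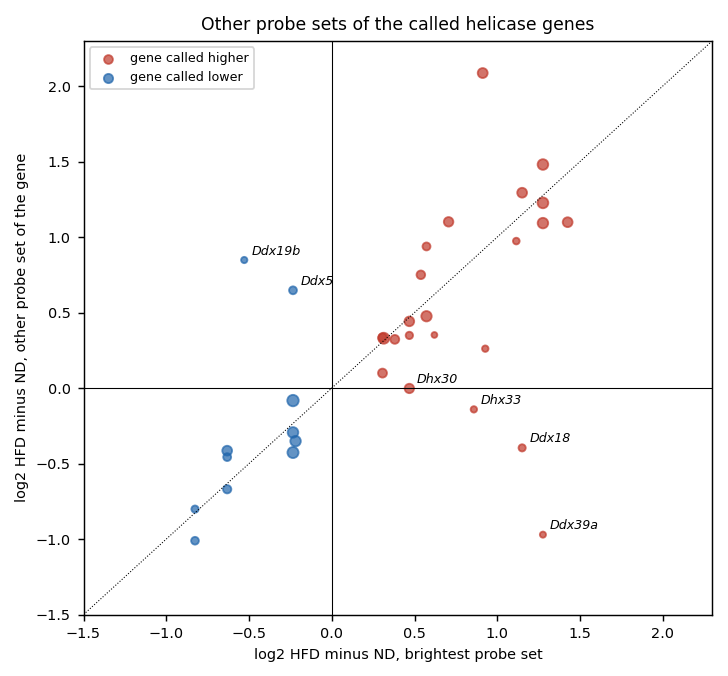
Log2 difference between HFD and ND on the other probe sets past the filter (y axis) against that of the brightest probe set of the same gene (x axis), for called helicase genes; point size grows with mean intensity and the dotted line marks equality. Of 34 probe sets, 28 share the sign of the brightest, and the 6 that do not are labelled by gene, Ddx39a being the lowest.

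The genes that rose together were looked up for shared promoter letters in the 250 bases before the start site (RefSeq, GRCm38.p6, 43 of 48 helicase genes matched). The search covered both strands for CACGTG, the E-box read by the MYC and MAX factors, and CCGGAAGT, a core read by ETS factors; the letters of the 2 motifs cannot overlap. CACGTG was held by 1 of 12 ribosome assembly risers (8.33%) and by 10.2% of the 8441 tested genes with a promoter. CCGGAAGT was also held by 1 of those 12, and by 7.38% of the tested genes. Of all 18 helicases called higher with a promoter, 1 held CACGTG (5.56%, against 11.6% of all genes called higher) and 3 held CCGGAAGT (16.7%, against 9.75%). Windows of the 7 called genes with a match are shown to place the matches in risers and fallers alike, with the match in capitals; a match is a description of letters only.
Dhx33, higher, chr11:71004442-71004487, minus strand: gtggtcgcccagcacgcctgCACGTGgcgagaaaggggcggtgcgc
Ddx5, lower, chr11:106788912-106788957, minus strand: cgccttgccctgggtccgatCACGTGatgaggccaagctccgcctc
Dhx37, higher, chr5:125434085-125434132, minus strand: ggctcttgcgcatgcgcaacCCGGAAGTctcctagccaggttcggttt
Dhx9, higher, chr1:153487729-153487776, minus strand: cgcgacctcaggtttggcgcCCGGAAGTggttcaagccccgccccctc
Dhx30, higher, chr9:110117653-110117700, minus strand: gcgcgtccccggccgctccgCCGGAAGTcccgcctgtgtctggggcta
Ddx17, lower, chr15:79546943-79546990, minus strand: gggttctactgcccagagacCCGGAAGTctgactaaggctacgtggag
Dhx34, lower, chr7:16222002-16222049, minus strand: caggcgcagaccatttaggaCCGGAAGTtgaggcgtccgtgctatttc
The matches begin 35 bases before the start site in Dhx33, 30 in Ddx5, 64 in Dhx37 and in Dhx30, 96 in Dhx9, 229 in Ddx17 and 36 in Dhx34. Of the helicases called lower, 1 of 7 with a promoter held CACGTG (14.3%, against 9.19% of all genes called lower) and 2 held CCGGAAGT (28.6%, against 4.87%).

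RNA helicases that carry other names were read beside the family. Of 14 measured (19 listed), 4 rose and 4 fell (28.6% each, against 20.5% and 29.2% of all genes). The median was -0.074, which is 0.078 above that of all genes. The translation initiation helicase Eif4a1 read 10108 on ND and 21313 and 21808 on HFD (log2 1.09 ± 0.074 SE, adjusted p = 1.93e-07), and the mitochondrial RNA helicase Supv3l1 read 638, then 1286 and 1451 (log2 1.08). Znfx1 and Mov10, both antiviral helicases, fell, from 461 to 190 ± 0.134 (log2 -1.20) and from 288 to 158 ± 7.23 (log2 -0.80). Of 22 measured partner proteins (26 listed), 10 rose and 3 fell (45.5% and 13.6%, against 20.5% and 29.2% of all genes). Their median was 0.065, which is 0.22 above that of all genes. The risers included Rbm8a of the exon junction complex, from 3760 to 8073 ± 708 (log2 1.10).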

How the data were processed

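RNA of 3 samples was measured on Affymetrix mouse arrays. The authors deposited 1 linear intensity per probe set, made with GCOS per the submitters' processing notes; the algorithm, version and background correction: not given in the sources used here. Each array has, as the values show, a trimmed mean of 500.0 (2% off each end), so bright transcripts that change shift all others. Detection calls were not used. Precision is limited by having so few arrays.

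Of 45037 probe sets besides 64 controls, 34945 had 1 symbol, 932 several and 9160 none; 34741 symbols matched RefSeq through Entrez identifiers and 0 changed. Intensities were taken as log2(intensity + 17.65), the 25th percentile of all values, and genes were kept above a mean of 71.4, the median probe set. HFD was tested against ND with limma 3.58.1 in R 4.3.3 (eBayes with a trend, two-sided), with 1 residual and 11.7 prior degrees of freedom. On simulated data, the estimate of the prior degrees of freedom varied widely between draws, and high estimates came with more false calls. The members and lists were chosen with earlier results of these data known, so no list was tested. Named genes were up to 10 called genes in each direction and 4 per role, by the smaller difference to ND, 4 called genes per related list and growth list, and every member by its value. Alternatives covered normalization, offset, filter, probe sets, variance model, threshold and each HFD array. Figures were drawn with matplotlib 3.10.9, pandas 2.3.3 and Python 3.11.15.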

Additional observations from a re-analysis of the deposited data

How the results depend on the processing

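The 12 ribosome assembly risers became 8 to 12 over the settings, and the 19 risers of the family 12 to 25. The share of all genes called moved as well. It ran from 9.14% higher and 10.6% lower with no filter to 28.7% and 35.5% with the filter at the 75th percentile. The count of genes that fell was 3 rather than 8 with arrays centred, with no filter, without a variance trend and at an adjusted p under 0.01. It was 5 with probe sets that carry no _s, _x or _a suffix. Of all genes, 20.3%, 10.6%, 21.4%, 19.1% and 27.7% fell in these settings in turn. Without a variance trend 12 rose, against 16.0% of all genes. Of the export, translation and decay genes, 1 rose with no filter, with averaged probe sets, without a trend and at 0.01, and 1 fell in these settings (2 with averaged probe sets) and with arrays centred. Of all genes, 17.9% rose and 25.5% fell with averaged probe sets, and 16.1% rose at 0.01. Of the splicing genes, 6 rose with arrays centred, 1 with no filter or trend, and 1 fell with the filter at the 75th percentile. Of the genes of other roles, 2 rose with arrays centred, a setting in which 26.7% of all genes rose. Centred differences with the variance of the uncentred fit, chosen after seeing the data, gave 3 genes that fell in the family, 1 in export, translation and decay, and 5 splicing genes that rose. Of all genes, 18.9% fell and 26.2% rose there. The prior degrees of freedom were infinite with arrays centred and under the stricter filter (75th percentile), which lowers p-values there, and 3.39 to 12.4 in the other fits. With averaged or suffix-free probe sets 1 ribosome assembly gene fell, Ddx24. With the filter at the 75th percentile 0 genes were 2-fold lower, since Ddx43 was not tested. The reversal of Ddx19b (0.16, adjusted p = 0.470) came with averaged probe sets, which include its dim one. For other changes the cause was not tested.

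Relative to all genes, the family's median was 0.39 under quantile normalization and with the offset at the median, 0.45 with an offset of 1, 0.36 with no filter, 0.40 with the stricter filter, 0.44 with averaged and 0.48 with suffix-free probe sets. The ribosome assembly median was 0.85 (quantile), 0.74 (offset at the median), 0.76 (no filter), 0.71 (stricter filter) and 0.70 (averaged). The export, translation and decay median was -0.0097 (no filter), 0.40 (stricter filter), 0.36 (averaged) and 0.48 (suffix-free), and that of splicing 0.20 with the stricter filter. Leaving out either HFD array leaves 0 residual degrees of freedom and values only. The relative medians were then 0.39 for the family, 0.81 to 0.87 for ribosome assembly, 0.27 to 0.38 for splicing and 0.045 to 0.10 for export, translation and decay.

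Without HFD 1 or HFD 2, 5 to 7 genes were 2-fold higher and 1 lower. Dim genes such as Dhx37 are limited by signal, as no background level is known. No paired analysis was possible because the ND group has a single array, and the sample titles name no pairs of ND and HFD samples.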
